A study of Mus musculus with 6 samples.

Results

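Genomic imprinting leaves one parental copy of a gene silent, and 46 mouse genes under this control, with the Igf2 axis left out, were followed in NIH/3T3 fibroblasts whose RNA polymerase II could or could not be acetylated at lysines of its tail. The genes were selected by name from the platform annotation, with results of these arrays already known. Each was represented by the probe set chosen by the highest mean over the 6 arrays, and since no gene on the list had more than 1 probe set carrying its symbol alone, that choice decided nothing. Of the 46 genes, 39 had a probe set of their own, out of 19938 such genes on the arrays, and 36 passed the filter on intensity, which left 17145 genes tested in all. Usp29, Zim1 and Sgce were below the filter, Mirg, Gnas, Snrpn and Ube3a were found only on probe sets that carry several symbols and are not named with values, and no probe set in the annotation used here carries the symbol H19, Slc22a3 or Zrsr1.

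NIH/3T3 is an established line of mouse embryo fibroblasts. One group stably expressed HA-tagged wild type mouse RPB1, the catalytic subunit of that polymerase. The other stably expressed HA-tagged 8KR RPB1, in which arginine replaces each lysine at the seventh position of the tail's repeats. Both groups were grown with α-amanitin, a toxin that blocks the polymerase of the host cells, at 2 µg/ml in medium with 10% bovine calf serum, and each was measured on 3 Affymetrix Mouse Gene 1.0 ST arrays described as biological replicates. Whether each group was 1 clone, and whether its replicates came from separate cell populations, the sources used here do not say, so the p-values measure the spread between these samples. Values are log2 intensities, a difference is 8KR minus wild type on that scale with its standard error (SE), and a gene was called at a limma p-value below 0.05 after Benjamini-Hochberg adjustment over all probe sets tested. A probe set's intensity depends on its own probes, so levels are compared between groups and not between genes.

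Many imprinted genes lie in clusters in which a control region, methylated on the copy from one parent, sets which allele is transcribed. Some genes of the list, such as Impact, Plagl1 and Rasgrf1, are listed alone and not with other members. Many paternally expressed genes promote growth and many maternally expressed genes restrain it, and several long noncoding RNAs act in cis within their clusters. In cultured fibroblasts, Dlk1, Meg3, Grb10 and Plagl1 are often studied for their parts in growth and differentiation. The arrays measure both alleles together, so a difference says nothing of which allele was transcribed. The expressed allele named for a gene is the one assigned to it in the list, and whether the gene was imprinted in these cells was not tested.

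The 6 arrays were alike in scale, with medians between 4.49 and 4.54. Correlations over tested probe sets ranged from 0.982 to 0.984 within a group and from 0.975 to 0.978 between groups. Of 10 fibroblast markers listed, 1 had no probe set, 1 was below the filter on intensity and 8 were tested. Those 8 had means above 5.0 in both groups, from 7.67 to 12.11 in wild type and from 7.15 to 11.91 in 8KR cells. The collagen gene Col3a1, 1 of the 8, was called lower in 8KR cells (difference -0.52). None of the tested markers of neurons, pluripotent cells, epithelium, endothelium or adipocytes had a group mean above 5.0, whereas 1 of 6 for trophoblast, 1 of 2 for macrophages and 2 of 6 for skeletal muscle did. Polr2a, which encodes RPB1, measured 12.10 in wild type and 12.13 in 8KR cells, and its probe set cannot tell the tagged form from the endogenous one.

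Among the 36 tested genes, 3 were called. Peg3 and Impact were higher in 8KR cells and Dlk1 was lower, and all 3 are listed as expressed from the paternal allele. The 3 calls are 8.33% of the genes, against 5.39% of all tested genes called in either direction. By direction, 5.56% were called higher against 2.33% of all genes, and 2.78% were called lower against 3.06%. With 36 genes, each call counts for 2.78%, so these shares lie within a gene or a pair of genes of the background. The median difference of the 36 genes was 0.036, beside 0.0088 for all tested genes, and 26 of them (72.2%) lay within 0.25 of no difference, beside 73.8% of all genes. At an unadjusted p below 0.05, 6 genes were higher and 3 lower, or 25% of the list against a background of 21.8%. The 3 arrays of one group lay wholly apart from the 3 of the other for 12 genes, 9 of them higher in 8KR cells, which is 33.3% of the list against 29.7% of all tested genes. Of the 16 tested genes listed as expressed from the paternal allele 2 were called higher and 1 lower, with 5 at an unadjusted p below 0.05. Of the 20 listed as expressed from the maternal allele none was called, with 4 at an unadjusted p below 0.05. The difference between the 2 classes of allele was not tested.

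**Figure D1:**
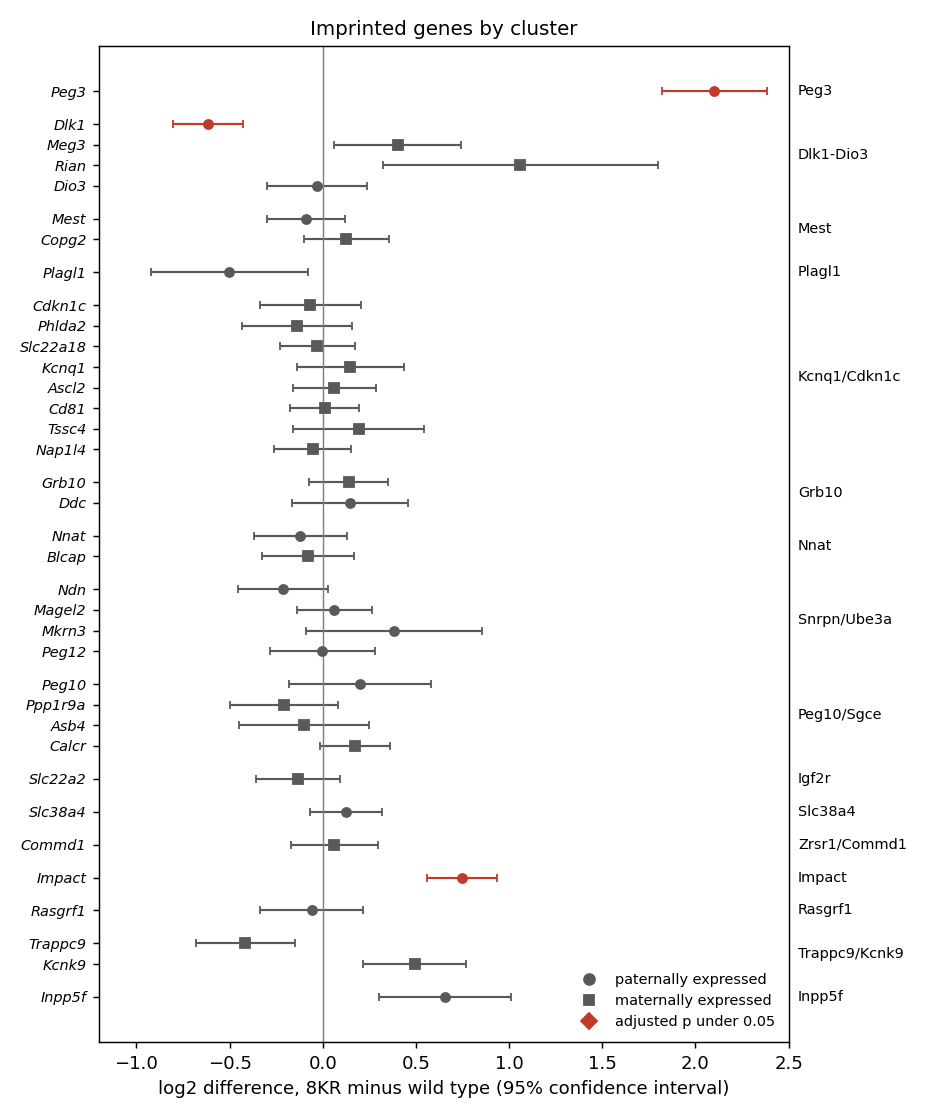
Difference in log2 intensity, 8KR minus wild type, for the 36 tested imprinted genes arranged by cluster. Points are limma estimates from 3 arrays per group and lines are 95% confidence intervals. Circles are genes listed as expressed from the paternal allele and squares from the maternal allele. Red marks the 3 called genes, Peg3 at 2.10, Impact at 0.75 and Dlk1 at -0.61. The 8 genes of the Kcnq1/Cdkn1c cluster all sit within 0.25 of no difference.

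Peg3 encodes a zinc finger protein that binds DNA and is known for its part in maternal behaviour and growth. It measured 5.68, 5.59 and 5.39 in wild type cells and 7.81, 7.62 and 7.54 in 8KR cells. Every 8KR array lay above every wild type array. The means were 5.55 ± 0.15 and 7.65 ± 0.14 (SD, n = 3 each), and the difference of 2.10 (SE 0.12, 95% confidence interval 1.82 to 2.38) is 4.29-fold (limma, adjusted p = 0.00150). Peg3 remained called in all 14 alternative settings, with adjusted p-values from 2.03e-05 to 0.0240.

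Peg3 shares its promoter with Usp29, a gene for a ubiquitin-specific protease that is transcribed the opposite way from a start 164 bases off. The window of Peg3 is shown because the gene had the largest difference on the list while the Usp29 probe set stayed below the filter, at means of 2.60 in wild type and 2.64 in 8KR cells. In RefSeq (GRCm38.p6) the window from 250 bases before to 50 bases after the Peg3 start is chr7:6730370-6730669 on the minus strand, and it shares 263 bases with that of Usp29. It is printed 5′ to 3′, with the palindrome TGACGTCA, the cyclic AMP response element, in capitals where it occurs.
Peg3: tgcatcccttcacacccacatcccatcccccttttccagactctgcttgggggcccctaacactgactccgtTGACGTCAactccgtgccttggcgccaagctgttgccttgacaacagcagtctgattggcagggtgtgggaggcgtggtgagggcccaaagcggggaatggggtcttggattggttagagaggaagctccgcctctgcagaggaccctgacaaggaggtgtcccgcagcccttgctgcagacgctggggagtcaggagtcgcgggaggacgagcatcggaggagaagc
The window holds 13 CG pairs, where the median of all RefSeq windows is 7, and the capitals begin at position -178 relative to the Peg3 start. That element, which reads the same on both strands, was found in 588 of 32851 windows (1.79%). Among the 46 imprinted genes 37 had a window, 54 in all, and 3 windows held the element, those of Peg3, Usp29 and Meg3. Impact, Kcnk9 and Trappc9 were among the genes that had no window and were not searched. No other element was looked for. The windows of Rian and Inpp5f, which also had higher values in 8KR cells, held no copy. The windows of Peg3 and Usp29 overlap and hold the same copy, which is thus counted for both genes. A match of letters is not evidence of binding.

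Zim1, a zinc finger gene of the same cluster expressed from the maternal allele, was also below the filter (2.84 and 2.81). None of the 3 tested genes on either side of Peg3 in the RefSeq order was called. Their differences ran from -0.33 for the olfactory receptor gene Olfr1348 to 0.36 for the zinc finger gene Zfp773. Zfp773 passed the filter through its 8KR mean only (2.84 in wild type and 3.19 in 8KR cells).

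Impact encodes a protein that restrains the amino acid sensor GCN2. Its intensity was 7.87, 7.89 and 7.90 in wild type cells and 8.72, 8.55 and 8.62 in 8KR cells. The arrays of the groups did not overlap, and the wild type arrays were nearly identical. From 7.88 ± 0.014 to 8.63 ± 0.085 (SD, n = 3 each), the gene rose by 0.75 (SE 0.077), or 1.68-fold (limma, adjusted p = 0.00823). It was called in 13 of 14 alternatives.

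Of the 3 tested genes on each side of Impact, 1 was called, and none of the neighbours of Peg3 or Dlk1 was. Among all tested genes, 5.39% were called and 29.7% had non-overlapping arrays. Osbpl1a, which encodes an oxysterol-binding protein, measured 5.87, 5.81 and 5.81 in wild type and 6.29, 6.44 and 6.32 in 8KR cells. All 3 of its 8KR arrays were above the wild type arrays, and the difference was 0.52 (SE 0.077, limma, adjusted p = 0.0225). The neighbours on the far side, Zfp521 and Ss18, had differences of 0.39 and 0.49 with non-overlapping arrays and adjusted p-values of 0.192 and 0.208, and Ttc39c and Psma8, the outer neighbours, had differences of -0.22 and -0.15. Cabyr, between Ttc39c and Osbpl1a, had a difference of 0.14 with non-overlapping arrays (limma, adjusted p = 0.464). It passed the filter at 3.0 through its 8KR mean only (2.98 in wild type and 3.12 in 8KR cells), which favours a positive difference.

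Dlk1 encodes a membrane protein with EGF-like repeats, also known as preadipocyte factor 1, that restrains adipocyte differentiation. It measured 10.79, 10.81 and 10.84 in wild type cells and 10.28, 10.12 and 10.19 in 8KR cells. Each 8KR array was below each wild type array. The SD was 0.023 in wild type and 0.083 in 8KR cells (n = 3 each), and the gene fell by 0.61 (SE 0.077), or 1.53-fold (limma, adjusted p = 0.0148). The call held in 8 of 14 alternatives and was lost when any wild type array, 8KR replicate 2 or 8KR replicate 3 was left out, with adjusted p-values between 0.0439 and 0.0635 over the 6 omissions and a difference that stayed between -0.57 and -0.62 in the 5 fits that lost it.

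**Figure D2:**
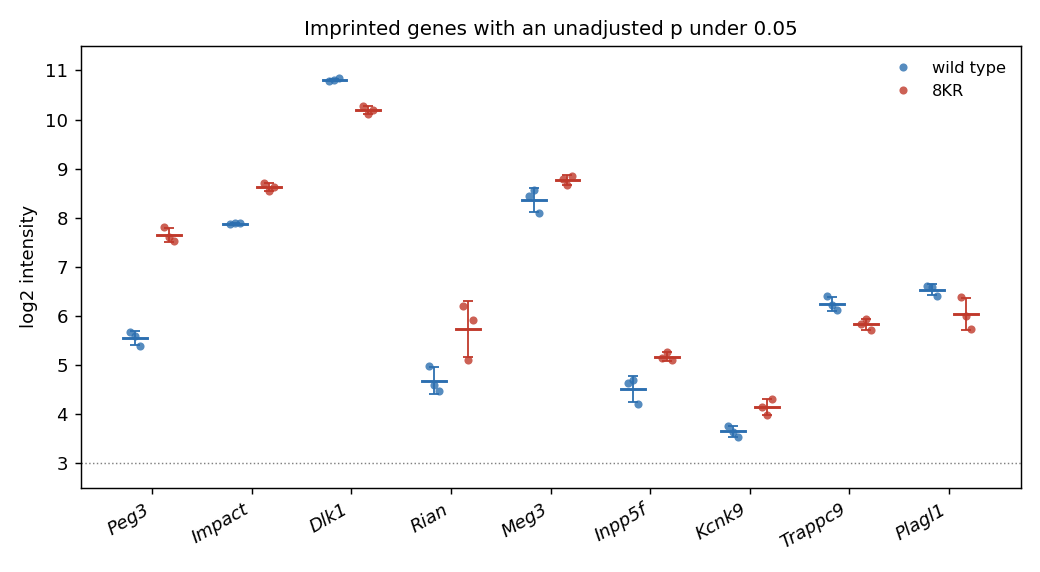
Log2 intensity on each array for the 9 imprinted genes with an unadjusted p below 0.05, in wild type (blue) and 8KR cells (red). Dots are arrays, horizontal lines are means and bars are SD (n = 3 per group), and the dotted line is the filter at 3.0. The arrays of the groups do not overlap for any of the 9 genes, beside 29.7% of all tested genes without overlap. The 9 were chosen by their p-values on these same arrays, which favours groups that lie apart. Peg3 has the widest gap.

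Dlk1 opens the Dlk1-Dio3 cluster, in which the paternal copy expresses the coding genes Dlk1, Rtl1 and Dio3 and the maternal copy expresses a run of noncoding RNAs. Meg3 and Rian, the long noncoding RNAs tested there, had higher values in 8KR cells while Dlk1 had lower ones. Among the 3 tested genes on either side of Dlk1 in the RefSeq order, differences ran from 0.044 to 0.40 and none was called. Those before Dlk1, which are not on the list, were Wars at 0.20, Wdr25 at 0.14 and Begain at 0.30. Meg3, a long noncoding RNA, was singled out after its values were seen. It measured 8.44, 8.57 and 8.10 in wild type and 8.79, 8.66 and 8.86 in 8KR cells. The highest wild type array lay just below the lowest 8KR array, and the difference of 0.40 (SE 0.14) did not pass adjustment (limma, adjusted p = 0.187). Rian, the host transcript of a group of C/D box small nucleolar RNAs (snoRNAs), measured 4.99, 4.59 and 4.47 in wild type and 6.21, 5.10 and 5.92 in 8KR cells. Its 8KR arrays were all higher but widely spread (SD 0.57 against 0.27), and the difference of 1.06 (SE 0.30) was not called (limma, adjusted p = 0.122). Dio3, which encodes the deiodinase that inactivates thyroid hormone, had a difference of -0.031, and its arrays overlapped (3.32 and 3.29).

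The windows of Meg3 and Dlk1 are shown because these neighbours in 1 cluster had differences of opposite sign. Meg3 has a pair of starts in RefSeq (GRCm38.p6), and the window of the first, chr12:109540746-109541045 on the plus strand, holds the palindrome in capitals at position -57 relative to the start, while the window of the second holds none. The Dlk1 window is chr12:109452573-109452872 on the plus strand.
Meg3: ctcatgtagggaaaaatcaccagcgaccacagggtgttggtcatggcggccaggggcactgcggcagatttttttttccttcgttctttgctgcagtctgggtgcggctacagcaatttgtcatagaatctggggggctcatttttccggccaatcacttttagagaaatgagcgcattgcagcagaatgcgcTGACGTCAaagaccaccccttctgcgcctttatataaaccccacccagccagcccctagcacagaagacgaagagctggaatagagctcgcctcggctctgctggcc
Dlk1: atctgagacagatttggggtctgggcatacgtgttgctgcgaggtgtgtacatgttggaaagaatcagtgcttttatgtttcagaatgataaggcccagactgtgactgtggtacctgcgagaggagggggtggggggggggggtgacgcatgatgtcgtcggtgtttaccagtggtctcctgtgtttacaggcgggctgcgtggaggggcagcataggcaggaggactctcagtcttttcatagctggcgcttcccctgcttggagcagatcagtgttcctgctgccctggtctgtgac
The Meg3 window holds 13 CG pairs and the Dlk1 window holds 9 and no copy of the palindrome. The Dlk1 start from which distances in kb are counted below lies before this window, and the sequence around it was not searched.

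The cluster also contains genes that are not on the list, and these were taken by their position after results were known. Rtl1, a coding gene derived from a retrotransposon, had a difference of 0.078 with overlapping arrays. The snoRNA genes DQ267101 and DQ267102 had differences of 0.70 and 0.44 (limma, adjusted p = 0.281 and 0.481). Of 40 miRNA genes with a probe set of their own, 15 were below the filter, with means between 1.52 and 2.95, and 4 of the 25 tested passed it through one group only. Mir299a, Mir323 and Mir300 passed through the 8KR mean and Mir380 through the wild type mean. Among the 25 tested, 20 differences were positive and 5 negative, with a median of 0.17. Of all 17145 tested genes, 8876 had a positive difference. Over all 40 miRNA genes, those below the filter included, the 8KR mean was above the wild type mean for 32 and below it for 8, with a median difference of 0.25. These probe sets share arrays and lie close together on the chromosome, so they are not independent, and none was called. Whether such a probe set reads the mature miRNA or a longer transcript was not tested.

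Of the 25 tested miRNA genes, 4 had an unadjusted p below 0.05, all of them higher in 8KR cells. Among these, Mir299a passed the filter through its 8KR mean only (2.61 in wild type and 3.17 in 8KR cells), which favours a positive difference. Over all tested genes the share below that p-value, in either direction, was 21.8%, with 1864 of 17145 genes higher and 1882 lower. Mir134, Mir668 and Mir485 are shown because they had an unadjusted p below 0.05 with both group means above the filter, and because they lie close together, 282 kb from the Dlk1 start. Their mature sequences from RefSeq (GRCm38.p6) are printed 5′ to 3′ with the seed, bases 2 to 8, in capitals.
miR-134-5p: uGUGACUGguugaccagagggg
miR-134-3p: cUGUGGGCcaccuagucacc
miR-668-5p: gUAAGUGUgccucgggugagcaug
miR-668-3p: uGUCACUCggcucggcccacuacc
miR-485-3p: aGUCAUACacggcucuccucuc
No seed is shared among these 5 miRNAs. Mir134 measured 6.25, 5.73 and 6.21 in wild type and 6.93, 6.35 and 6.92 in 8KR cells. Mir668 measured 5.17, 5.18 and 5.28 in wild type and 5.58, 5.63 and 5.89 in 8KR cells. Both had every 8KR array above every wild type array, whereas Mir485 overlapped, at 5.11, 5.63 and 5.11 against 5.47, 6.13 and 5.91. The differences were 0.67, 0.49 and 0.55, with adjusted p-values of 0.163, 0.0654 and 0.242 (limma).

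**Figure D3:**
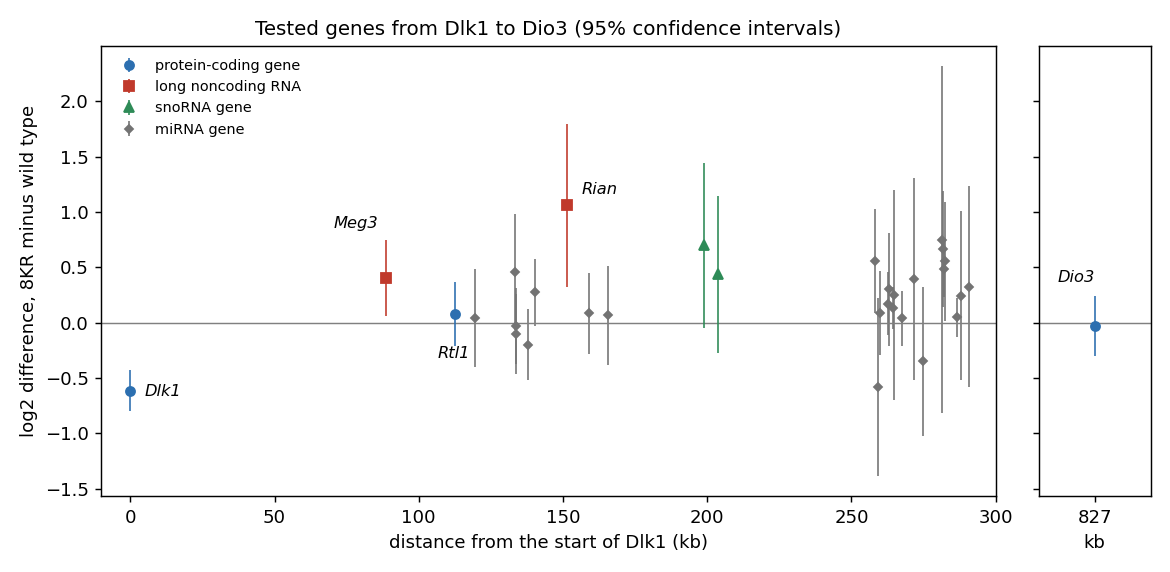
Difference in log2 intensity, 8KR minus wild type, for the tested genes from Dlk1 to Dio3, by distance in kb from the start of Dlk1 in RefSeq, with a break before Dio3 at 827 kb. Vertical lines are limma 95% confidence intervals from 3 arrays per group. Dlk1 lies at -0.61, Meg3 at 0.40, Rian at 1.06 and Dio3 at -0.031, and the miRNA genes (grey) range from -0.58 to 0.75 with wide intervals.

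Inpp5f, Kcnk9, Trappc9 and Plagl1 also had an unadjusted p below 0.05 and were not called. Inpp5f, a phosphoinositide phosphatase gene of which a transcript variant is imprinted, measured 4.63, 4.70 and 4.21 in wild type and 5.14, 5.27 and 5.10 in 8KR cells. The groups did not overlap, and the difference was 0.66 (SE 0.15, limma, adjusted p = 0.0667). Plagl1, a zinc finger transcription factor gene that restrains the cell cycle, measured 6.60, 6.59 and 6.41 in wild type and 6.38, 6.004 and 5.72 in 8KR cells. Its 8KR values were all lower and spread over a wider range, with a difference of -0.50 (SE 0.17, limma, adjusted p = 0.185).

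Kcnk9 and Trappc9 are neighbours in 1 cluster and had differences of opposite sign. The maternally expressed Kcnk9, which encodes a potassium channel and was singled out after its values were seen, measured 3.76, 3.64 and 3.54 in wild type and 4.14, 3.98 and 4.31 in 8KR cells. Trappc9, which encodes a subunit of a vesicle tethering complex, measured 6.40, 6.22 and 6.11 in wild type and 5.84, 5.94 and 5.71 in 8KR cells. Neither gene's groups overlapped. The differences were 0.49 (SE 0.11) for Kcnk9 and -0.41 (SE 0.11) for Trappc9, with adjusted p-values of 0.0713 and 0.0991 (limma). These, with Inpp5f, are the genes just outside the threshold, and Dlk1 is the one just inside it. Rian, Inpp5f, Kcnk9 and Trappc9 passed it in some alternative settings, Inpp5f in 4 of 14, Trappc9 in 3 of 14, Rian in 2 of 14 and Kcnk9 in 2 of 13.

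The Kcnq1/Cdkn1c cluster had 8 tested genes, all listed as expressed from the maternal allele. The differences of all 8 were between -0.14 and 0.19 with overlapping arrays. The tetraspanin gene Cd81 measured 11.48, 11.34 and 11.33 in wild type and 11.41, 11.39 and 11.38 in 8KR cells. The groups overlapped, and the difference of 0.010 had a 95% confidence interval of -0.17 to 0.20. Cdkn1c, the gene of a cyclin-dependent kinase inhibitor that restrains growth, and Phlda2, a placental growth restrainer, had differences of -0.066 and -0.14. Tssc4 (0.19) and Kcnq1 (0.15) were at the upper end, Ascl2 (0.063) and Slc22a18 (-0.029) near the middle, and Nap1l4, a histone chaperone gene, was at -0.054.

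In the Grb10 cluster, the adaptor gene Grb10, which restrains insulin signalling, measured 9.33, 9.14 and 9.28 in wild type and 9.34, 9.36 and 9.48 in 8KR cells. The groups were only just apart, and the difference of 0.14 (95% confidence interval -0.073 to 0.35) was not called. Ddc, which encodes the enzyme that makes dopamine from DOPA, had a difference of 0.15. In the Mest cluster, the coatomer gene Copg2 measured 7.51, 7.32 and 7.48 in wild type and 7.67, 7.57 and 7.47 in 8KR cells. These overlapped, at a difference of 0.13, and Mest, whose product resembles a hydrolase, had a difference of -0.092 (3.25 and 3.16).

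In the Nnat cluster, Blcap, a gene known for its loss in bladder cancer, measured 7.34, 7.35 and 7.35 in wild type and 7.39, 7.08 and 7.34 in 8KR cells. The wild type arrays fell inside the spread of the 8KR arrays, and the difference was -0.079. Nnat, which lies within an intron of Blcap, had a difference of -0.12 with overlapping arrays. In the Snrpn/Ube3a cluster, necdin (Ndn), a MAGE family protein that restrains growth, measured 6.46, 6.60 and 6.69 in wild type and 6.29, 6.33 and 6.50 in 8KR cells. The groups overlapped at a difference of -0.21 (95% confidence interval -0.46 to 0.029). Further genes of the cluster, Magel2, also of the MAGE family, Mkrn3 and Peg12, had differences of 0.063, 0.38 and -0.0026, none of them called.

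In the Peg10/Sgce cluster all 4 tested genes had group means below 5.0. Peg10, derived from a retrotransposon and required in the placenta, measured 3.54, 3.56 and 3.75 in wild type and 4.10, 3.81 and 3.54 in 8KR cells. The groups overlapped at a difference of 0.20. Calcr, the calcitonin receptor gene, had a difference of 0.17 with non-overlapping arrays (limma, adjusted p = 0.284), and Ppp1r9a and Asb4 had differences of -0.21 and -0.10. Sgce was just below the filter, at 2.91 and 2.95, and Asb4 just above it, at 3.17 and 3.07.

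Slc22a2, the cation transporter gene near Igf2r, measured 3.93, 3.93 and 3.91 in wild type and 3.78, 3.94 and 3.66 in 8KR cells. It overlapped between the groups, at a difference of -0.13. Commd1, whose product takes part in copper handling, measured 7.65, 7.61 and 7.59 in wild type and 7.66, 7.54 and 7.83 in 8KR cells. These overlapped as well, at a difference of 0.063. The amino acid transporter gene Slc38a4 had a difference of 0.13 with non-overlapping arrays (8.31 and 8.44, limma, adjusted p = 0.448), and Rasgrf1, an exchange factor gene for Ras, had a difference of -0.058 (3.98 and 3.92). Across the list, 16 genes had no group mean above 5.0, and only Peg3, Impact and Dlk1 were called among the 20 that did.

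Further imprinted genes that were not on the list, 44 by name and 36 tested, had 6 calls (16.7%, against 5.39% of all tested genes). Whether these genes were imprinted in these fibroblasts was not tested either. By direction, 5.56% were called higher and 11.1% lower, against 2.33% and 3.06% of all tested genes. The 4 called lower were decorin (Dcn), a proteoglycan of the collagen matrix, at -3.37, the AMP deaminase gene Ampd3 at -1.09, the decoy receptor gene Tnfrsf23 at -0.68 and the lipid flippase gene Atp10a at -0.59. Those called higher were the phosphodiesterase gene Pde4d at 0.66 and the chromatin gene Jade1 at 0.49. Leaving out single arrays took the calls of Jade1 and Atp10a in each of the 6 fits, of Pde4d in all but that without wild type replicate 1, of Tnfrsf23 in all but those without wild type replicate 1 and 8KR replicate 3, and of Ampd3 in that without wild type replicate 1. Among Igf2 and its receptor, Igf2 measured 5.07 in wild type and 9.98 in 8KR cells, and Igf2r 7.51 and 8.03, both called higher.

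Genes whose products act on imprinted regions formed another list, of 28 genes with 27 tested, and 5 of these (18.5%) were called higher and none lower, against 2.33% and 3.06% of all tested genes. At an unadjusted p below 0.05, 9 were higher and 1 lower, or 37% of the list against 21.8% of all tested genes. The median difference of the 27 genes was 0.0052. Zfp57, which encodes the zinc finger protein that binds methylated imprinting control regions, measured 6.66, 6.58 and 6.64 in wild type and 7.41, 7.73 and 7.64 in 8KR cells. All 3 of the 8KR arrays were higher, and the difference was 0.97 (SE 0.10, 1.95-fold, limma, adjusted p = 0.00887). Trim28, the corepressor recruited by such zinc finger proteins, rose by 0.58 (8.01 to 8.59, limma, adjusted p = 0.0228).

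Smchd1, which encodes a chromatin protein of the SMC family that silences the inactive X and some imprinted clusters, measured 7.44, 7.44 and 7.42 in wild type and 8.13, 8.25 and 8.22 in 8KR cells. The groups lay far apart for their spread, at a difference of 0.77 (SE 0.072, 1.71-fold, limma, adjusted p = 0.00659). Ezh2 and Suz12, subunits of Polycomb repressive complex 2, rose by 0.53 and 0.37 (limma, adjusted p = 0.0223 and 0.0432), while Eed, the remaining core subunit, had a difference of -0.084. The calls of Trim28, Ezh2 and Suz12 were lost in each fit that left out an array, and those of Zfp57 and Smchd1 were kept in all 6.

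The maintenance methyltransferase gene Dnmt1 and its partner Uhrf1, singled out after their values were seen, had differences of opposite sign. Dnmt1 measured 8.44, 8.43 and 8.54 in wild type and 8.02, 8.18 and 8.12 in 8KR cells. Uhrf1 measured 8.39, 8.33 and 8.78 in wild type and 9.40, 9.07 and 9.22 in 8KR cells. Neither overlapped, and neither passed adjustment, at -0.36 (limma, adjusted p = 0.0667) and 0.72 (limma, adjusted p = 0.0594). Each was called in 4 of 14 alternatives. The part of these genes in the differences of the imprinted genes was not tested.

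**Figure D4:**
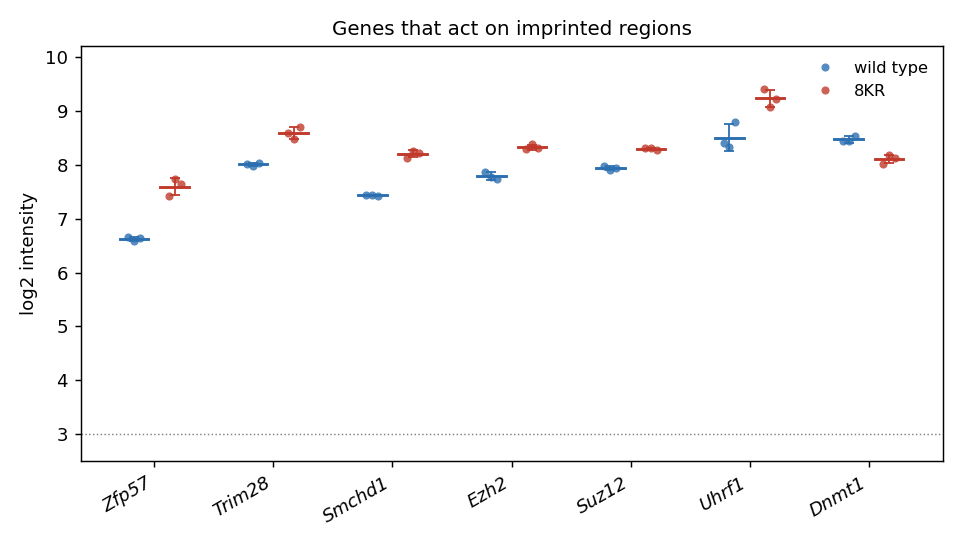
Log2 intensity on each array for 7 genes that act on imprinted regions, in wild type (blue) and 8KR cells (red). Dots are arrays, horizontal lines are means and bars are SD (n = 3 per group), and the dotted line is the filter at 3.0. Zfp57, Trim28, Smchd1, Ezh2 and Suz12 were called higher in 8KR cells, and Uhrf1 (higher) and Dnmt1 (lower) were separate between groups but not called.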

How the data were processed

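RNA of wild type and 8KR cells was measured on 3 arrays each. The authors deposited normalized log2 intensities, with a value for each probe set on each array. Among the tools, the submitters' processing notes give Affymetrix Power Tools (version 1.12.0). How the arrays were normalized, and against which genome build, the sources used here do not say. Samples were grouped by their labels.

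Of 35557 probe sets, 7014 with neither group mean above 3.0 were removed, and 28543 were fitted without covariates (lmFit, then eBayes, in limma 3.58.1 under R 4.3.3), with Benjamini-Hochberg adjustment over all of them. Symbols from the platform annotation were updated through Entrez identifiers with RefSeq (GRCm38.p6). Probe sets without a symbol of their own took part in the fit and are not named. The script was tested on simulated data. Arrays give no read depth, and their number limits the precision.

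The members and lists were chosen with earlier results of these data known, so that their counts are descriptions and no list was tested as a set. Values on every array were given for called members, for those with an unadjusted p below 0.05 and a difference of at least 0.5 in size, and for the member with the highest mean in each cluster of several. Meg3, Kcnk9, Dnmt1 and Uhrf1, and the miRNA genes of the Dlk1-Dio3 cluster, were added after their values were seen. Alternatives changed the filter, normalization, variance model, array weights, replicate block, arrays included and choice of probe sets. Figures were drawn with matplotlib 3.10.9.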

Additional observations from a re-analysis of the deposited data

How the results depend on the processing

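Peg3 was called in all 14 alternatives and Impact in all but the replicate block. The main fit called 2 members higher and 1 lower. Those numbers were 5 and 2 when the fit was limited to probe sets with a single symbol or to the mean of each gene's probe sets. Both of these adjust over fewer rows. A group mean above 5.0 gave 3 higher and 2 lower, and the intensity trend gave 3 higher and 1 lower. The additional members were Rian, Inpp5f and Kcnk9 (higher) and Trappc9 (lower). Leaving out each array in turn gave 0 to 1 members lower, 0 to 1 of the other imprinted genes higher (2 with all arrays), 2 to 3 of them lower (4 with all arrays) and 2 regulators higher in each fit (5 with all arrays). These fits have fewer arrays, and over all genes they called 108 to 125 higher and 153 to 168 lower, against 399 and 525. The mean of each gene's probe sets gave 4 other imprinted genes higher. The 1 regulator lower under a group mean above 5.0, the intensity trend, single-symbol probe sets and the mean of probe sets was Dnmt1. Over all genes, higher and lower calls numbered 817 and 920 with a group mean above 5.0, 306 and 386 with no filter, 685 and 843 with the intensity trend, 754 and 884 with single-symbol probe sets, and 802 and 931 with the mean of probe sets. Alternatives were run for 30 of the genes named with values, and among these the sign turned for 3 differences near 0. Leaving out each array gave -0.015 to 0.057 for Cd81 (below 0 without wild type replicate 2 or 3), -0.015 to 0.13 for Commd1 (below 0 without 8KR replicate 3) and -0.14 to 0.016 for Blcap (above 0 without 8KR replicate 2).

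Samples with the same replicate number did not deviate together, with correlations of -0.011, 0.0086 and -0.00048, and 2 of 6 samples correlated best with their own number, so the numbers were not used as pairs. With the replicate block, 1 member was called higher and 0 lower, 0 other imprinted genes higher and 1 lower, 0 regulators higher, and over all genes 22 higher and 41 lower. Impact then had an adjusted p of 0.0780 and Dlk1 of 0.0923 (limma), at unchanged differences of 0.75 and -0.61.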

Other observations

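The 4 probe sets that carry the symbol of Mirg, Gnas, Snrpn or Ube3a together with further symbols were all tested and are given without names. Their means over the 6 arrays lay between 4.06 and 7.96. Their differences, 8KR minus wild type, ran from 0.068 to 0.21 on the log2 scale, the smallest unadjusted p was 0.286, and none was called (limma, smallest adjusted p = 0.588).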
